A study of Mus musculus with 8 samples.

Results

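The 5 genes *Col22a1*, *Uchl1*, *Map3k7cl*, *Prss23* and *Tigd4* were listed as genes of the myotendinous junction (MTJ), the site where a muscle fiber is anchored to its tendon, because their transcripts were high at muscle fiber ends in these embryonic mouse diaphragms. They were found by symbol among the 19465 genes of the count matrices, and all 5 were present in all 8 sections. The genes were selected on their measured UMI levels at fiber ends against the middle of the muscle in the control sections, so their position there is given as a description without a test. The measurements were counts of unique molecular identifiers (UMIs, 1 for each captured probe molecule) in spots of 55 µm diameter set 100 µm apart under 5 µm sections of fixed, paraffin-embedded diaphragm.

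The sections comprised 3 controls at E14.5 (embryonic day), 2 controls at E18.5, and 1 section each of the CaV1.1 KO at E14.5, the CaV1.1 KO at E18.5 and the E18.5 β-cat cKO. The CaV1.1 KO was homozygous for the dysgenic null allele of *Cacna1s*, the pore-forming subunit of the skeletal muscle voltage-gated calcium channel, in every cell of the embryo, and its muscle does not contract on excitation. In the β-cat cKO, a Cre recombinase driven by the human skeletal actin promoter (HSA) deleted floxed β-catenin (*Ctnnb1*), so that cells other than muscle kept the gene. Controls of both lines carried an expressing allele of the gene concerned. Each mutant group was 1 section, so its spread could not be measured and was assumed to equal that of the controls.

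At the MTJ the sarcolemma folds between finger-like processes of tendon matrix, and integrin and dystrophin complexes link the contractile filaments to laminin and collagen outside the fiber. *Col22a1* encodes collagen XXII, which is deposited at this junction. *Prss23* encodes a secreted serine protease, *Uchl1* a ubiquitin hydrolase abundant in neurons, *Map3k7cl* a protein related to the C-terminus of the kinase TAK1 and *Tigd4* a protein derived from a transposase. In the diaphragm, the fibers run radially between a central tendon and the ribs, with nerve contacts, the neuromuscular junctions (NMJs), in a band near the middle.

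All 5 genes are protein coding in the GENCODE M21 annotation of GRCm38. *Col22a1* lies at chr15:71795795-72034227 on the minus strand, *Uchl1* at chr5:66676091-66687234 on the plus strand and *Map3k7cl* at chr16:87553330-87595336 on the plus strand. *Prss23* lies at chr7:89507783-89527187 on the minus strand and *Tigd4* at chr3:84593574-84597032 on the plus strand, so the genes are on 5 chromosomes. RefSeq promoter sequence was at hand for 3 of the 5, *Uchl1* and *Tigd4* with 1 start each and *Prss23* with 7 starts. The 250 bases before the start are shown for *Uchl1*, chr5:66675871-66676120, and *Tigd4*, chr3:84593324-84593573, both plus strand of GRCm38.p6, as the pair with a single start and opposite content of muscle motifs. Capitals mark a match of the M-CAT motif CATTCC, the element read by TEAD factors.
Uchl1 promoter: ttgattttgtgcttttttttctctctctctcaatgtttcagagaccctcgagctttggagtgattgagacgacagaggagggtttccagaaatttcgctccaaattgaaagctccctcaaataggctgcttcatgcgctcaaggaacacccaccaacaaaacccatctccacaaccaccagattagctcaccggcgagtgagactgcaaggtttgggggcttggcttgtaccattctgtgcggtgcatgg
Tigd4 promoter: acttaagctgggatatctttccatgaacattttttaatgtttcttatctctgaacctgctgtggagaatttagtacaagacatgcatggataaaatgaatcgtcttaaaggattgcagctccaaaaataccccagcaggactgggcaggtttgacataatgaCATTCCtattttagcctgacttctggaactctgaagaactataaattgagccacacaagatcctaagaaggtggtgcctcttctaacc
Of 3 motifs searched on both strands, the E-box CANNTG, M-CAT and the MEF2 site, the *Tigd4* window held 1 M-CAT match, which began 88 bases before the start, and the *Uchl1* window held none. M-CAT matches were present in 12.6%, E-boxes in 66.2% and MEF2 sites in 2.92% of 32851 promoter windows of the same length. A match is a description of letters and not of binding.

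The deposited spots held 14179161 to 82859104 UMIs per section. Spots under 1000 UMIs were then left out, which kept 683 to 3460 spots per section. Muscle spots were those high in 9 sarcomere and muscle genes such as *Ttn* and *Neb*. Tendon-rich spots were the other spots high in *Col12a1*, *Col11a1*, *Scx* and *Antxr1*. Muscle spots that touched a tendon-rich spot, within 110 µm, were called tendon-adjacent muscle and stand for the fiber ends, and muscle spots over 300 µm away were called inner muscle. Tendon-adjacent muscle held 37 to 161 spots and 845864 to 5115020 UMIs per section, the smallest in E14.5 control 3. It was 105 of 549, 100 of 571 and 37 of 581 muscle spots in the E14.5 controls and 114 of 491 in the CaV1.1 KO at E14.5. At E18.5 it was 146 of 3092 and 116 of 2199 in the controls, 119 of 813 in the CaV1.1 KO and 161 of 1577 in the β-cat cKO. The regions thus covered unlike shares of muscle across sections, and the part of this in the comparisons was not tested. No gene of the muscle list or of an 8-gene tendon list was at 0 in the summed tendon-adjacent muscle of any section. A sum over many spots cannot show which spots held both tissues. Fewer fiber ends under a spot cannot be told apart from less RNA per fiber end. Levels are given as CPM, the UMIs of a gene per 1000000 UMIs of the region, with sections in the order of their replicate numbers.

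At E18.5, *Col22a1* had the steepest fall from fiber end to inner muscle among the 4 genes with ample counts, which was not so in E14.5 controls 1 and 3. In the 2 E18.5 controls its level was 443 and 444 CPM in tendon-adjacent muscle, 123 and 271 CPM at 100 to 200 µm, 69.8 and 84.8 CPM at 200 to 300 µm, and 27.5 and 26.1 CPM beyond 300 µm. The ratio of tendon-adjacent to inner muscle was thus 16.1 (95% interval 14.98 to 17.2, exact binomial, counting error only) and 17.0 (15.8 to 18.3). In the 3 E14.5 controls the same ratio was 2.32, 2.38 and 1.73, from 129, 117 and 96.9 CPM at the fiber ends and 55.8, 49.4 and 55.9 CPM in inner muscle. The gradient of *Col22a1* was therefore present in every control section and steeper in both sections of the later stage. Tendon-adjacent muscle of the E18.5 controls held 34.4% and 31.3% of all *Col22a1* UMIs of the section, against 4.99% and 4.79% of the UMIs of all genes.

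*Tigd4* was a low-count gene with a profile like that of *Col22a1*. It reached 55.2 and 55.6 CPM in tendon-adjacent muscle of the E18.5 controls and 3.23 and 3.48 CPM in inner muscle, ratios of 17.1 (95% interval 14.0 to 20.7) and 16.0 (12.9 to 19.7). At E14.5 it was at 7.96, 9.38 and 2.36 CPM beside tendon, the last from 2 UMIs, and at 2.88, 3.002 and 3.30 CPM in inner muscle. The ratio in E14.5 control 3 was 0.72 with an interval of 0.083 to 2.84, so no gradient was detectable there at this depth.

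*Uchl1* was next in order, with ratios of 7.32 and 5.92 at E18.5 from 260.0 and 273 CPM at the fiber ends and 35.5 and 46.1 CPM in inner muscle. Its E14.5 ratios were 1.56, 2.05 and 1.69. *Map3k7cl* reached 258 and 154 CPM at the E18.5 fiber ends and 55.5 and 44.6 CPM in inner muscle, ratios of 4.64 and 3.44, and had ratios of 1.92, 1.93 and 2.20 at E14.5. *Prss23* had the shallowest gradient at E18.5, with 137 and 123 CPM beside tendon, 62.1 and 78.2 CPM in inner muscle and ratios of 2.21 and 1.57, while its E14.5 ratios of 2.59, 2.23 and 1.33 lay in the same range. The order of the ratios at E18.5 was thus *Col22a1* and *Tigd4*, whose intervals overlapped in each section, then *Uchl1*, *Map3k7cl* and *Prss23*, whose intervals did not overlap within a section. This order holds for inner muscle as a whole. The inner level of *Map3k7cl* took in spots rich in endplate genes, described below, and was 40.1 and 29.2 CPM without them. Its ratio to that lower level would be higher, and the separation from *Uchl1* was not tested that way.

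**Figure D1:**
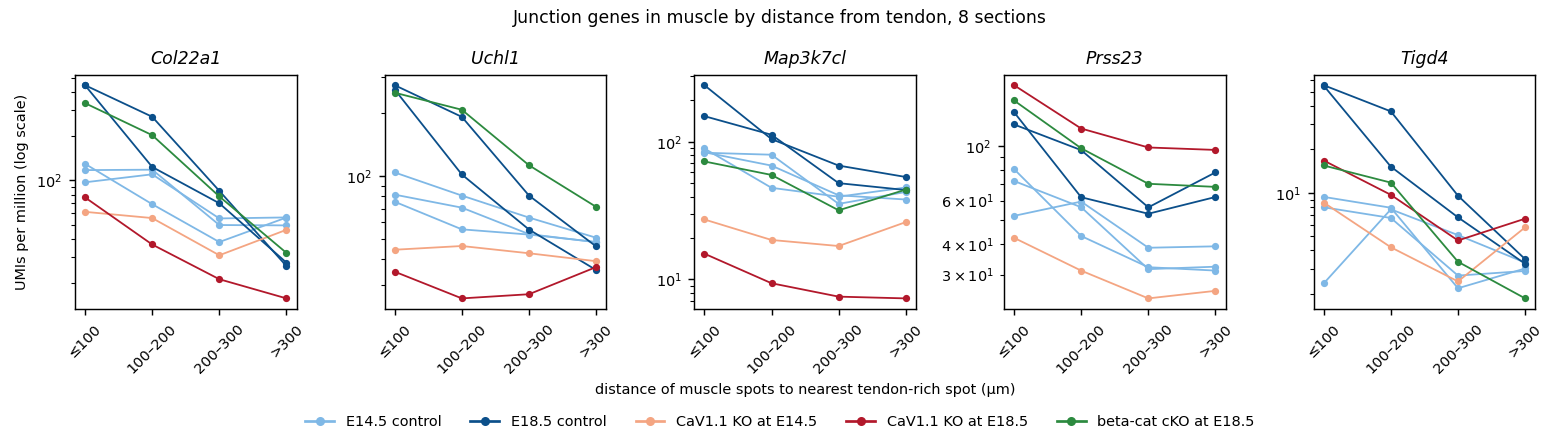
Level of the 5 genes in CPM (log axis) against the distance of muscle spots from the nearest tendon-rich spot in µm, with 1 line per section, colored by stage and genotype. The E18.5 controls fall from 443 and 444 CPM to 27.5 and 26.1 CPM for *Col22a1*, and the line of the CaV1.1 KO at E18.5 stays lowest for *Map3k7cl*, between 15.4 and 7.28 CPM.

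The mutants kept some of these gradients and not others. In the β-cat cKO the ratio was 10.4 for *Col22a1* (335 against 32.1 CPM), 8.30 for *Tigd4*, 3.52 for *Uchl1*, 2.25 for *Prss23* and 1.60 for *Map3k7cl*. The inner level of *Map3k7cl* in this section also took in spots rich in endplate genes, and was 26.8 CPM without them. In the CaV1.1 KO at E18.5 it was 4.86 for *Col22a1* (76.5 against 15.7 CPM), 2.53 for *Tigd4*, 2.11 for *Map3k7cl*, 1.83 for *Prss23* and 0.95 for *Uchl1*. The *Uchl1* interval in that section was 0.73 to 1.23, so fiber ends were not distinguishable from inner muscle in this gene. In the CaV1.1 KO at E14.5 the ratios were between 1.05 for *Map3k7cl* and 1.64 for *Prss23*.

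**Figure D2:**
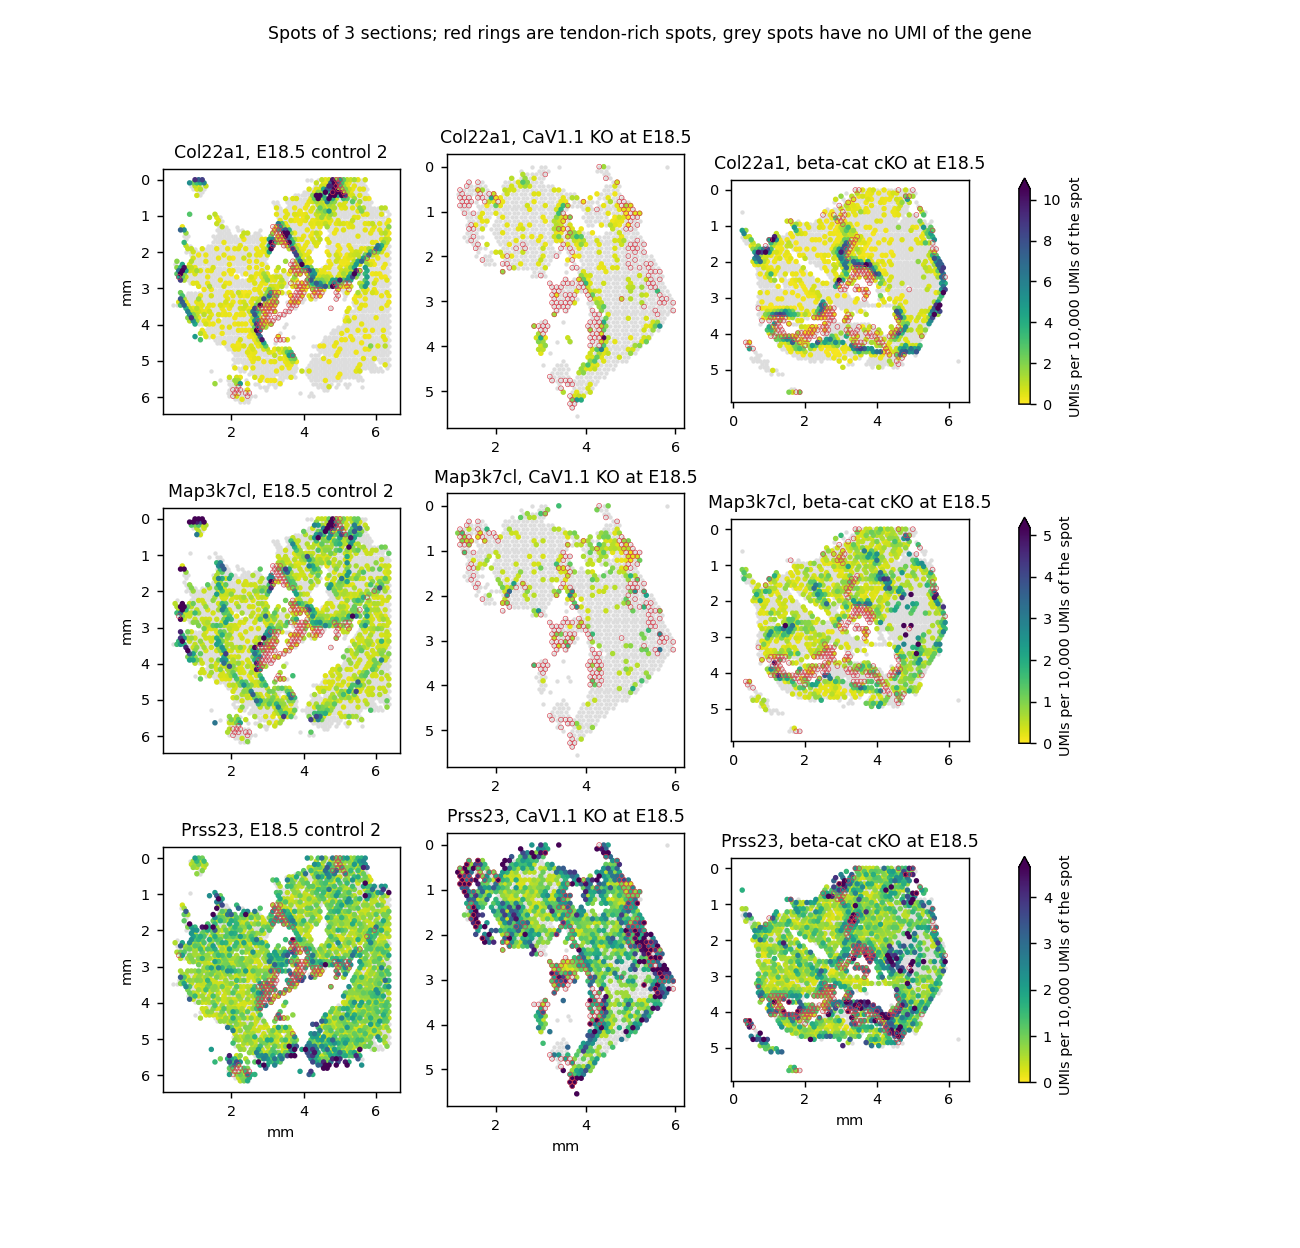
Spot maps of *Col22a1*, *Map3k7cl* and *Prss23* (rows) in E18.5 control 2, the CaV1.1 KO at E18.5 and the β-cat cKO (columns), with positions in mm, color for UMIs per 10000 UMIs of the spot, capped at the brightest spots of the control, red rings for tendon-rich spots and grey for spots with no UMI of the gene. Bright *Col22a1* spots line the muscle border in the control and the β-cat cKO, whose tendon-adjacent levels are 444 and 335 CPM, and are sparse in the CaV1.1 KO at 76.5 CPM.

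*Map3k7cl* had a second site of high level at E18.5, in spots rich in endplate genes. Endplate-rich spots were the 15% of muscle spots highest in 8 genes of the NMJ such as the acetylcholine receptor subunits *Chrna1* and *Chrng*. They were taken as the same share of muscle in every section, however sharply these genes were confined, so they need not mark a band near the middle in each section. In these spots *Map3k7cl* was at 137 and 107 CPM in the E18.5 controls and 111 CPM in the β-cat cKO, which is 3.42, 3.67 and 4.14 times the level of other inner muscle. The 3 E14.5 controls had ratios of 0.70, 0.76 and 0.64, the CaV1.1 KO 0.35 at E14.5 and 0.76 at E18.5, where the level was 11.3 and 6.08 CPM. Ratios above 1 were thus seen in the 2 E18.5 controls and the β-cat cKO, and ratios below 1 in the E14.5 controls and the CaV1.1 KO at E14.5. In the CaV1.1 KO at E18.5 the interval was 0.39 to 1.37, from 15 UMIs in endplate-rich spots, so these were not distinguishable from other inner muscle. The place of endplate-rich spots in the E14.5 sections and in both CaV1.1 KO sections was not tested. The other 4 genes had no such site, with ratios of 0.32 to 0.77 for *Col22a1*, 0.20 to 0.89 for *Tigd4*, 0.78 to 1.12 for *Uchl1* and 0.47 to 1.096 for *Prss23* over the 8 sections.

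**Figure D3:**
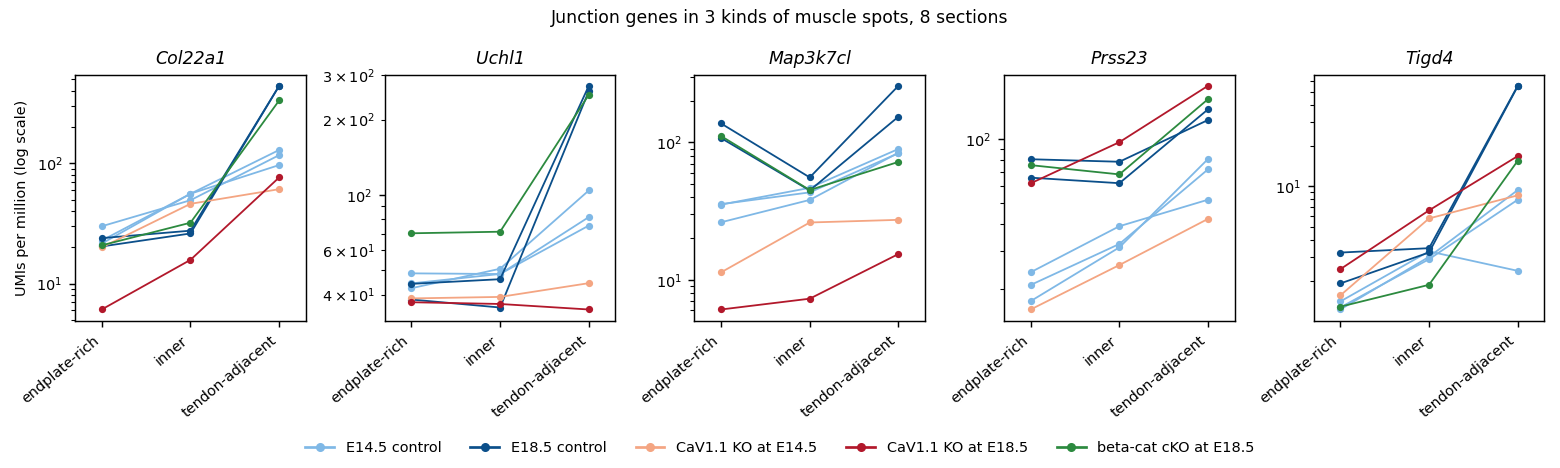
Level of the 5 genes in CPM (log axis) in endplate-rich, inner and tendon-adjacent muscle, with 1 point per section and colors for stage and genotype. *Map3k7cl* in endplate-rich muscle separates the E18.5 controls and the conditional mutant (107 to 137 CPM) from the CaV1.1 KO sections (6.08 and 11.3 CPM).

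Transcripts of *Uchl1* were also abundant outside muscle in some sections. *Uchl1* had 53.8% of its UMIs in spots that were neither muscle nor tendon-rich in E14.5 control 1 and 31.0% in E18.5 control 2, against 4.15% to 24.3% in the other 6 sections. Across these spots its level correlated with the mean of 6 neuronal genes at r = 0.79 over 140 spots of E14.5 control 1 and r = 0.92 over 173 spots of E18.5 control 2, and with 4 chromaffin cell genes at r = 0.75 and r = 0.89. These were the 2 highest of the 8 sections, and in the other 6 the neuronal r ran from 0.062 in E14.5 control 3 to 0.64 in the β-cat cKO and the chromaffin r from -0.092 to 0.58. Spots of 1 section share a library and capture depth, so these are descriptions. *Prss23* correlated there with 4 mesothelial genes in all 8 sections, at r = 0.22 to 0.57.

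Likeness to *Col22a1* was ranked over muscle spots by Pearson's r, averaged over the 5 control sections, for 8388 other genes detected in at least 20% of muscle spots of each control section. *Map3k7cl* ranked 1 with a mean r of 0.46, *Uchl1* ranked 14 with 0.34 and *Prss23* 21 with 0.32. The genes were chosen for high levels at fiber ends in these same sections, so their ranks restate that choice. *Tigd4* had a mean r of 0.45 but was detected in only 8.26% to 17.3% of spots and was not ranked. The 8 nearest genes beyond the list were *Tnmd*, *Fmod*, *Col12a1*, *Ankrd1*, *Ccn2*, *Abi3bp*, *Ctnna3* and *Fn1*, with mean r from 0.46 to 0.36. *Tnmd*, *Fmod* and *Col12a1* are tendon genes and *Ankrd1* is a stretch-responsive muscle gene.

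To compare stages and genotypes, UMIs were summed per section and region and tested with edgeR's quasi-likelihood test across all genes, with Benjamini-Hochberg adjustment, and differences are log2 ratios after TMM scaling. The genes were chosen for high levels at the fiber ends against the middle of the muscle in the control sections. Their stage differences in every region are therefore a description, and where passing is mentioned it is no independent test. The comparisons of the mutants use the same controls, whose levels beside tendon were selected to be high. This choice favors lower mutant values there, so those calls are not independent of it. In tendon-adjacent muscle, all 5 genes were higher in the E18.5 than in the E14.5 controls, where 23.9% of all genes tested were called higher and 44.9% were called in either direction. The difference was 3.29 ± 0.25 (log2, SE) for *Tigd4*, 2.42 ± 0.17 for *Col22a1*, 2.09 ± 0.15 for *Uchl1*, 1.77 ± 0.22 for *Map3k7cl* and 1.37 ± 0.18 for *Prss23*. The E14.5 levels beside tendon were 75.4, 104 and 81.6 CPM for *Uchl1*, 89.4, 83.3 and 83.9 CPM for *Map3k7cl*, and 80.6, 72.1 and 52.0 CPM for *Prss23*. In CPM, the 3 E14.5 and 2 E18.5 levels beside tendon did not overlap for any of the 5. Summed CPM of the 9 muscle genes in these spots was 16114 to 23425 at E14.5 and 86789 and 103491 at E18.5, and that of the tendon list 903 to 1514 against 1997 and 3386. Their part in the difference was not tested. Per UMI of the muscle genes, 4 of the 5 differences turned negative, at -0.39 for *Col22a1*, -0.76 for *Uchl1*, -1.11 for *Map3k7cl* and -1.42 for *Prss23*, while the median of all genes shifted by -2.83.

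In inner muscle the stage differences were nearer to 0 for 4 of the 5 genes than beside tendon, a contrast that was not tested. *Col22a1* was at 48.0, 40.5 and 44.5 CPM after TMM scaling at E14.5 and 37.6 and 35.9 CPM at E18.5. The difference was -0.27 ± 0.10 and was called under only 6 of 14 alternative settings. The other 4 rose, *Prss23* by 1.77 ± 0.12, *Map3k7cl* by 0.96 ± 0.14, *Tigd4* by 0.86 ± 0.20 and *Uchl1* by 0.46 ± 0.12, where 33.5% of all genes rose, 33.5% fell and 67.1% were called. Inner muscle included endplate-rich spots. Outside them, *Map3k7cl* in inner muscle was at 50.2, 46.4 and 41.1 CPM at E14.5 and 40.1 and 29.2 CPM at E18.5, without TMM scaling. The part of the endplate-rich spots in its rise was not tested. Without E18.5 control 2 the *Uchl1* rise did not pass. With only the muscle spots above the median muscle score, the rises of *Uchl1* (0.22), *Map3k7cl* (0.34) and *Tigd4* (0.073) in inner muscle did not pass either. Over all muscle spots all 5 rose, by 0.58 to 1.51, beside 33.2% of all genes that rose and 65.6% called. With only the muscle spots above the median muscle score, *Uchl1* (0.26), *Map3k7cl* (0.22) and *Tigd4* (0.15) did not pass over all muscle and *Col22a1* turned to -0.80. Scaling by total UMIs, without TMM factors, lowered all stage differences by 0.72 in all muscle, 0.49 in tendon-adjacent muscle and 0.73 in inner muscle, measured as the median of all genes. In all muscle it took *Col22a1* to -0.14, and the rises of *Uchl1* (0.049) and *Map3k7cl* (0.29) no longer passed. In inner muscle it took *Uchl1* to -0.27, and the rises of *Map3k7cl* (0.23) and *Tigd4* (0.13) no longer passed.

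As a check of the labels, *Cacna1s* was at 18.9, 18.3 and 22.8 CPM in muscle of the E14.5 controls and 16.2 CPM in the CaV1.1 KO of that stage, a difference of -0.30 ± 0.14 that did not pass (edgeR adjusted p = 0.340). At E18.5 it was at 61.2 and 63.9 CPM in the controls and 31.4 CPM in the CaV1.1 KO, lower by 1.53 ± 0.15 on the log2 scale (edgeR adjusted p = 0.00133). *Ctnnb1* in muscle of the β-cat cKO differed by -0.07 ± 0.12 (edgeR adjusted p = 0.770). The place of the probes relative to the altered exons was not given in the sources used here, so these values do not test the labels.

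At E14.5, 1 of the 5 genes, *Map3k7cl*, was called lower in all muscle of the 1 CaV1.1 KO section, where 2.08% of all genes were called and 1.54% were lower. Its level was 46.1, 46.3 and 36.1 CPM after TMM scaling in the controls and 18.49 CPM in the mutant, lower by 1.22 ± 0.21 on the log2 scale (edgeR adjusted p = 0.0351). The call was lost when any 1 of the 3 E14.5 controls was left out (edgeR adjusted p = 0.0589, 0.0693 and 0.0604). It was also lost per UMI of the 9 muscle genes (-0.66) and with the replicate number as a block (-1.42). *Col22a1* (-0.55 ± 0.13), *Prss23* (-0.53 ± 0.14) and *Uchl1* (-0.47 ± 0.19) did not pass in all muscle, although 4 of the 5 genes had an unadjusted p under 0.05 in the edgeR fit. DESeq2 called 3 of the 5 there, *Map3k7cl*, *Col22a1* (DESeq2 adjusted p = 0.00906) and *Prss23* (DESeq2 adjusted p = 0.0194). In tendon-adjacent muscle none of the 5 was called, with 0.145% of all genes called and edgeR adjusted p from 0.121 for *Map3k7cl* to 0.990 for *Tigd4*. There *Map3k7cl* stood at 24.2 CPM against 71.7 to 82.4 CPM, *Col22a1* at 54.2 against 82.8 to 119 CPM, *Uchl1* at 39.4 against 69.5 to 91.2 CPM and *Prss23* at 37.6 against 44.4 to 74.3 CPM. These 4 values lay below every E14.5 control, with unadjusted p of 0.00056, 0.0024, 0.0011 and 0.015 in the edgeR fit. DESeq2 called the first 3 of them, *Map3k7cl*, *Col22a1* and *Uchl1*, as lower, among 63 genes in this region against 19 by edgeR. Over 14 alternatives *Map3k7cl* was called in 8, among them the ring of up to 210 µm (-1.70, edgeR adjusted p = 0.0148) and the replicate number as a block (-1.96, edgeR adjusted p = 0.0156), and *Col22a1*, *Uchl1* and *Prss23* in 3 each. In inner muscle none of the 5 was called either, beside 2.38% of all genes, and the log2 differences ran from -0.74 for *Map3k7cl* to 0.89 for *Tigd4*. These 2 genes had an unadjusted p under 0.05 there, and DESeq2 called *Map3k7cl*.

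By E18.5, 4 of the 5 genes were lower in tendon-adjacent muscle of the CaV1.1 KO, where 3.87% of all genes were called and 2.50% were lower. This region was a larger share of muscle spots in the mutant, 119 of 813 against 146 of 3092 and 116 of 2199 in the controls. *Map3k7cl* was at 335 and 184 CPM after TMM scaling in the controls and 15.1 CPM in the mutant, lower by 4.10 ± 0.41 (log2, SE; edgeR adjusted p = 0.00119). *Uchl1* was at 338 and 327 CPM against 34.2 CPM, lower by 3.28 ± 0.26 (edgeR adjusted p = 0.000609). *Col22a1* was at 576 and 531 CPM against 75.0 CPM, lower by 2.88 ± 0.26 (edgeR adjusted p = 0.000654). The mutant level of these 3 genes lay below both E18.5 controls and also below every E14.5 control. *Tigd4* was at 71.8 and 66.5 CPM against 16.4 CPM, from 37 UMIs, lower by 2.07 ± 0.35 (edgeR adjusted p = 0.0135).

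*Prss23* stood apart, at 179 and 147 CPM in the controls and 173 CPM in the mutant, a difference of 0.09 ± 0.24 (edgeR adjusted p = 0.869). The first 3 genes were called under all 13 alternative settings, and *Tigd4* under 9 of 13. All of these settings used controls in which the genes had been selected as high beside tendon. Per UMI of the 9 muscle genes, *Prss23* was higher by 1.36 and called. Without E18.5 control 1 the *Tigd4* call was lost. In this section the tendon list summed to 1133 CPM beside tendon against 1997 and 3386 CPM in the E18.5 controls, and the muscle list to 50323 against 103491 and 86789 CPM. Tendon-rich spots of the mutant held 2223 CPM of the tendon list against 7199 and 8424 CPM, and 6029 CPM of the hepatocyte genes *Alb*, *Apoa1* and *Ahsg*. The part of these differences in the result was not tested.

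**Figure D4:**
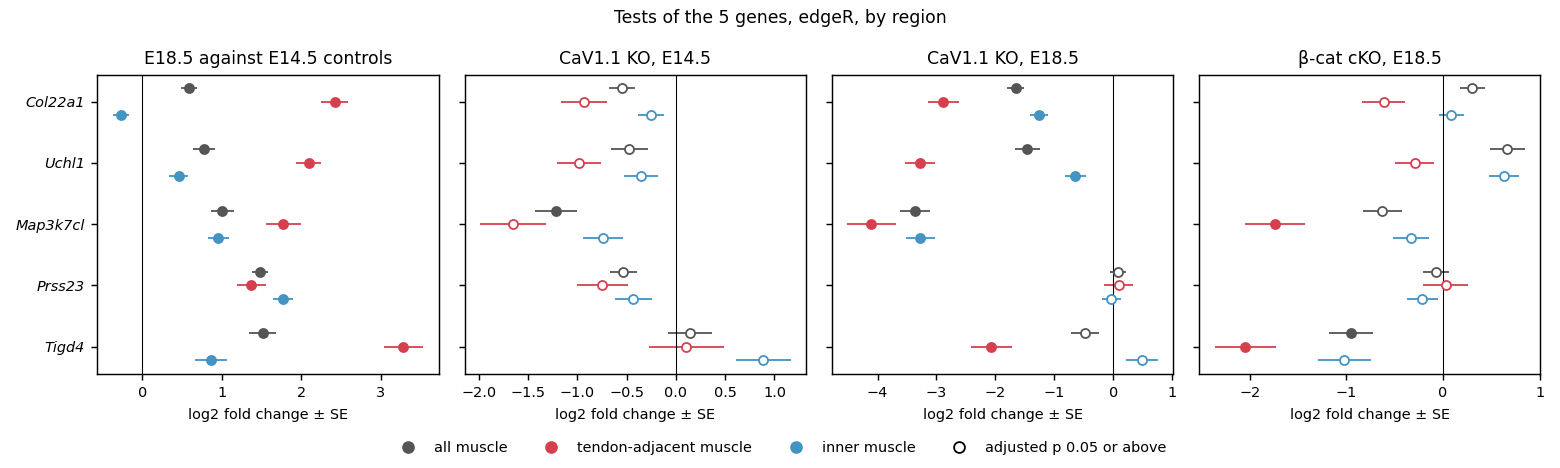
Log2 differences of the 5 genes (points) with their SE (bars) from the edgeR fit for stage, both CaV1.1 KO comparisons and the β-cat cKO, in all, tendon-adjacent and inner muscle, with filled points where the adjusted p was under 0.05, of which those for stage are a description only. In tendon-adjacent muscle of the CaV1.1 KO at E18.5, 4 genes lie between -2.07 and -4.10 and *Prss23* at 0.09.

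Away from tendon, 3 of the 5 genes were lower in the E18.5 CaV1.1 KO. Inner muscle was 379 of 813 muscle spots in this section, against 2568 of 3092 and 1825 of 2199 in the controls. In inner muscle *Map3k7cl* was at 75.7 and 61.3 CPM against 7.08 CPM, lower by 3.27 ± 0.25 (edgeR adjusted p = 0.0010), and was called under all 11 alternatives. Outside endplate-rich spots its inner level was 40.1 and 29.2 CPM in the controls and 8.03 CPM in the mutant, without TMM scaling. *Col22a1* was lower by 1.26 ± 0.16 (edgeR adjusted p = 0.0028) and *Uchl1* by 0.65 ± 0.18 (edgeR adjusted p = 0.0369), beside 21.1% of all genes called and 12.6% lower. The *Uchl1* call was lost without E18.5 control 2 (-0.44), under total UMI scaling (-0.15), with the replicate number as a block (-0.54) and with only the sections of the comparison (-0.66). The *Col22a1* call was lost per UMI of the 9 muscle genes (-0.033) and with only the muscle spots above the median muscle score (-0.43). *Tigd4* differed by 0.49 ± 0.27 and *Prss23* by -0.03 ± 0.16, and neither passed, while *Tigd4* was called higher in 3 of 11 alternatives. Over all muscle the same 3 genes were called, *Map3k7cl* at -3.37 ± 0.25, *Col22a1* at -1.66 ± 0.15 and *Uchl1* at -1.46 ± 0.21, beside 25.7% of all genes called and 15.2% lower. Scaled to the 9 muscle genes, the *Col22a1* and *Uchl1* differences in all muscle became -0.25 and -0.05 and did not pass, and with only the muscle spots above the median muscle score *Col22a1* did not pass at -0.52. The difference between the effects at E18.5 and E14.5 was also tested, although it includes the control stage difference and so is not independent of the choice of genes. It was called for *Col22a1* and *Map3k7cl* in all muscle, beside 6.4% of all genes, and for the same pair in inner muscle, beside 4.09%. In tendon-adjacent muscle it was called for none of the 5, beside 0.023% of all genes, with an unadjusted p under 0.05 for 5 of 5. DESeq2 called it for 3 of the 5 (*Col22a1*, *Uchl1* and *Map3k7cl*), among 28 genes in all against 3 by edgeR.

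In the β-cat cKO, *Map3k7cl* and *Tigd4* were lower in tendon-adjacent muscle, where 0.735% of all genes were called and 0.551% were lower. *Tigd4* was at 71.8 and 66.5 CPM after TMM scaling in the E18.5 controls and 16.7 CPM in the mutant, lower by 2.05 ± 0.32 (edgeR adjusted p = 0.0201). *Map3k7cl* was at 335 and 184 CPM against 77.9 CPM, lower by 1.74 ± 0.32 (edgeR adjusted p = 0.0412). Both calls were lost without E18.5 control 1, under total UMI scaling, per UMI of the 9 muscle genes and with only the muscle spots above the median muscle score, and each gene was called in 9 of 13 alternatives. *Col22a1* at 362 CPM, *Uchl1* at 272 CPM and *Prss23* at 166 CPM did not pass, with differences of -0.61 ± 0.22, -0.29 ± 0.20 and 0.03 ± 0.24. The tendon list summed to 2135 CPM in these spots, between the controls, and the muscle list to 66148 CPM, below both.

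Over all muscle of the β-cat cKO, *Tigd4* was the only 1 of the 5 called by edgeR, at -0.95 ± 0.23 (edgeR adjusted p = 0.0454), beside 8.8% of all genes called and 5.62% lower, and it was called in 5 of 11 alternatives and not without E18.5 control 2. *Uchl1* was at 0.67 ± 0.18 (edgeR adjusted p = 0.0647) and was called higher in 6 of 11 alternatives, among them DESeq2 (DESeq2 adjusted p = 0.0145), and *Col22a1*, at 0.30 ± 0.13, in 3 of 11. An unadjusted p under 0.05 was found for 3 of the 5 in the edgeR fit. In inner muscle none of the 5 was called, beside 7.52% of all genes. *Uchl1* there was at 86.4 CPM against 48.4 and 63.3 CPM, a difference of 0.63 ± 0.16 (edgeR adjusted p = 0.0504, 0.00168 to 0.0858 over the alternatives), and DESeq2 called it. *Uchl1* and *Tigd4* had an unadjusted p under 0.05 in that region. The endplate level of *Map3k7cl* of 111 CPM lay between the 107 and 137 CPM of the controls, whereas its fiber end level lay below both.

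Fiber ends face either the central tendon or the ribs, and tendon-adjacent spots of the 5 controls were split by whether the tendon lay toward the section's center (inner end) or away from it (outer end). *Col22a1* at E18.5 was at 467 and 372 CPM at inner ends and 395 and 604 CPM at outer ends, so the order was opposite in the 2 sections. None of the 5 genes was called between the ends, where 0.273% of all genes, 32 of 11701, were called, and log2 differences ran from -0.23 for *Uchl1* to 0.01 for *Tigd4*. None had an unadjusted p under 0.05 in the edgeR fit, the lowest being 0.053 for *Uchl1*, and DESeq2 called 5 genes in all. Of 14 alternatives, *Uchl1* was called lower at inner ends in 2, with only the E14.5 ends (-0.54, edgeR adjusted p = 0.0325) and without E18.5 control 1 (-0.49, edgeR adjusted p = 0.0353).

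A list of 20 genes gives the wider setting. It holds integrin adhesion genes such as *Itga7* and *Tln1*, and others such as *Ankrd1*, *Csrp3*, *Rxrg*, *Thbs4*, *Adamts20* and *Slc24a2*. The authors displayed *Ankrd1*, *Csrp3* and *Rxrg* as MTJ markers and *Thbs4* as a peripheral tendon gene in these data. The list was chosen with earlier results of these data known, so its counts are a description and not independent. In tendon-adjacent muscle 17 of the 20 rose between the stages after TMM scaling and none fell, with a median log2 difference of 1.28 against -0.02 over all genes, of which 23.9% rose. *Slc24a2* rose by 4.78 and *Nrap*, which ties actin filaments to the junction, by 3.45. In the CaV1.1 KO at E18.5, 6 of the 20 were lower there and none higher, with a median of -0.56 against 0.00 over all genes, of which 2.50% were lower, and DESeq2 called 4. *Thbs4*, the peripheral tendon gene, was lower by 5.10, *Csrp3*, a mechanosensor of the muscle Z-disc, by 4.05, *Ankrd1* by 3.57 and *Nrap* by 2.21. These spots also held less of the tendon list in this mutant, as given above, and the part of that was not tested. At E14.5, 1 of the 20, *Thbs4*, was lower in tendon-adjacent muscle of the CaV1.1 KO, at -3.67 ± 0.43 (edgeR adjusted p = 0.0149), beside 0.145% of all genes called, and DESeq2 called 4 as lower. In the β-cat cKO none of the 20 was called there by edgeR or DESeq2, 4 had an unadjusted p under 0.05 in the edgeR fit, and the median was -0.27. Over all muscle, 17 rose and 1 fell by stage, beside 65.6% of all genes called. There, 4 were lower in the CaV1.1 KO at E14.5, beside 1.54% of all genes (8 by DESeq2), and 13 in that at E18.5, beside 15.2% (14 by DESeq2). In the β-cat cKO 1 was higher (*Ankrd1*, 0.98) and 1 lower (*Lims2*, -1.09) over all muscle, beside 8.8% of all genes called, and DESeq2 called 2 in each direction. The corresponding inner muscle counts were 17 higher and 1 lower by stage, beside 67.1% of all genes called. In the CaV1.1 KO at E14.5, 5 were lower (6 by DESeq2), beside 2.38% of all genes called in either direction. In that at E18.5, 11 were lower (11 by DESeq2), beside 21.1% called in either direction and 12.6% lower. In inner muscle of the β-cat cKO 1 was higher and 1 lower, beside 7.52% of all genes called, and DESeq2 called 2 higher and 1 lower.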

How the data were processed

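Spatial transcriptomes of 8 sections of embryonic mouse diaphragm were analyzed from the deposited matrices, spot barcodes and spot positions. The authors aligned probe reads with Space Ranger (2.0.0 for E14.5 controls 1 and 2 and the CaV1.1 KO at E14.5, 2.0.1 for the other 5) to mm10, and deposited raw UMI counts per gene and spot, so version and group are partly confounded. The 5 genes and all gene lists were chosen with earlier results of these data known. Spots under 1000 UMIs were removed. Muscle and tendon-rich spots were set by Otsu's threshold on mean log-normalized levels of 9 muscle and 4 tendon genes in each section. UMIs were summed per section and region, filtered with filterByExpr, TMM scaled and tested with edgeR 4.0.16 (quasi-likelihood test, threshold 0.05 after Benjamini-Hochberg adjustment) in 1 fit of 8 sections in 5 groups. All p-values measure the spread between these sections, and mutants had 1 section each. Inner and outer fiber ends were tested in the 5 controls with the section as a block. Region sums held 845864 to 75800900 UMIs. Intervals are exact binomial at 95% and cover counting error only. Alternatives were DESeq2 1.42.0 and its size factors, scaling to the 9 muscle genes or total UMIs, no low-count filter, no UMI minimum, other regions, each control left out, and the replicate number as a block. Named genes were the 5 members, the 8 genes most like *Col22a1*, and up to 4 called genes of the attachment list per comparison with the largest differences. Scripts were tested on simulated data. Promoter sequences were from RefSeq (GRCm38.p6), matched by symbol for 3 of the 5 genes, and gene positions from GENCODE M21. Python 3.11.15 and R 4.3.3 were used. Spatial images and the authors' clusters were not used.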

Additional observations from a re-analysis of the deposited data

Results flagged for a closer look

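The log2 difference of the CaV1.1 KO from controls was called unlike at E14.5 and E18.5 for *Col22a1* and *Map3k7cl*. This was a test of the difference itself in the edgeR fit, with 1 mutant section per stage. It includes the stage difference of the controls, on whose levels the genes were chosen, so it is no independent test. In all muscle the log2 effect at E18.5 minus that at E14.5 was -2.15 ± 0.30 for *Map3k7cl* (edgeR adjusted p = 0.0218) and -1.11 ± 0.19 for *Col22a1* (edgeR adjusted p = 0.0257), beside 6.4% of all genes called. In inner muscle it was -2.53 ± 0.32 for *Map3k7cl* (edgeR adjusted p = 0.0225) and -1.01 ± 0.20 for *Col22a1* (edgeR adjusted p = 0.0403), beside 4.09% of all genes. Inner muscle included endplate-rich spots, and their part in the *Map3k7cl* difference was not tested. *Map3k7cl* in the CaV1.1 KO was lower by 1.22 in all muscle at E14.5 and by 3.37 at E18.5, and *Col22a1* by 0.55 and 1.66. In each stage 1 mutant section lay below every control of that stage in both genes and both regions. Over the alternatives, chosen after seeing the data, the *Map3k7cl* difference was called in 11 of 13 in all muscle and 12 of 13 in inner muscle, and that of *Col22a1* in 8 of 13 and 4 of 13. In all muscle, neither was called without E14.5 control 3, and *Col22a1* was not called without E14.5 control 2. In inner muscle, neither was called without E14.5 control 2, and *Col22a1* was not called without E14.5 control 3. Scaled to the 9 muscle genes, the *Col22a1* difference was -0.26 in all muscle and -0.36 in inner muscle. With only the muscle spots above the median muscle score it was -0.22 and -0.34. Both settings lost its call in both regions. Total UMI scaling gave -0.55 for *Col22a1* in inner muscle, also not called. With the replicate number as a block, neither was called in all muscle (edgeR adjusted p = 0.0750 for both) and *Col22a1* was not called in inner muscle. The number of all genes called by edgeR for this difference, 949 in all muscle and 569 in inner muscle, was 0 and 128 under the block. DESeq2 without a block called 1582 and 854. It was 0 in all muscle without E14.5 control 3, 148 without E14.5 control 2, and at most 1105 when another control was left out. In inner muscle it was 29 without E14.5 control 2, 110 without E14.5 control 3, 281 and 290 without E18.5 control 1 and 2, and 612 without E14.5 control 1. *Uchl1* and *Prss23* were each called in 3 of 13 alternatives in all muscle, and *Prss23* in 2 of 13 in inner muscle. In tendon-adjacent muscle the differences were as large, -2.45 ± 0.51 and -1.95 ± 0.33, but did not pass (edgeR adjusted p = 0.185 and 0.119), and 0.023% of all genes were called.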

How the results depend on the processing

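Over 106 results, 1259 values were computed under alternative settings, of which 942 stayed the same, 71 changed sign, 69 no longer passed, 74 newly passed and 103 moved. For the test of a gene, the same means an unchanged direction and side of the threshold. For counts of called genes and ratios by position, it means that they did not move. The fall of *Col22a1*, *Uchl1* and *Map3k7cl* in tendon-adjacent muscle of the CaV1.1 KO at E18.5 passed in each of its 13 alternatives. The widest changes came with scaling to the 9 muscle genes, whose UMIs themselves differed between stages and genotypes, and the cause of the other changes was not tested. The E14.5 depth limits *Tigd4*, with 2 UMIs in tendon-adjacent muscle of E14.5 control 3, and its E14.5 position could not be computed with distance to non-muscle positions because 1 section had 0 UMIs. Scaling to the 9 muscle genes took the share of called genes that were higher from 50.7, 53.2 and 49.98% to 1.47, 1.12 and 1.53% for stage, from 25.6, 21.1 and 26.9% to 96.8, 66.7 and 96.7% for CaV1.1 KO at E14.5, from 41.1, 35.4 and 40.6% to 99.2, 99.3 and 99.1% for CaV1.1 KO at E18.5 and from 36.1, 25 and 39.7% to 93.98, 92.3 and 91.4% for β-cat cKO, with regions in the order all, tendon-adjacent and inner muscle. Scaling to total UMIs took the share of called genes that were higher from 50.7, 53.2 and 49.98% to 20.01, 22.4 and 19.6% for stage, from 41.1, 35.4 and 40.6% to 90.6, 83.9 and 90.9% for CaV1.1 KO at E18.5 and from 36.1, 25 and 39.7% to 79.9, 49.1 and 75% for β-cat cKO, with regions in the order all, tendon-adjacent and inner muscle. The median of all genes shifted by 0.55, 0.46 and 0.57 for CaV1.1 KO at E14.5 under the muscle gene scaling, 1.40, 1.25 and 1.23 for CaV1.1 KO at E18.5 under the muscle gene scaling, 0.54, 0.35 and 0.49 for CaV1.1 KO at E18.5 under the total UMI scaling, 0.52, 0.72 and 0.42 for β-cat cKO under the muscle gene scaling and 0.22, 0.21 and 0.17 for β-cat cKO under the total UMI scaling.

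Replicate numbers of E14.5 and E18.5 controls name different embryos, and deviations of same-numbered sections correlated at -0.33 and -0.32 over 14832 genes, so the numbers were not taken as pairs. With the number as a block the *Map3k7cl* call in all muscle of the CaV1.1 KO at E14.5 was lost, at -1.42. With sections scaled to the 9 muscle genes, genes called were 4939 (all), 57 (tendon-adjacent) and 4852 (inner) for CaV1.1 KO at E14.5, 12468 (all), 7808 (tendon-adjacent) and 11231 (inner) for CaV1.1 KO at E18.5, 3886 (all), 388 (tendon-adjacent) and 2372 (inner) for β-cat cKO and 12185 (tendon-adjacent) for stage. Opposite in sign were the log2 differences of *Col22a1* -2.59, *Uchl1* -2.41, *Map3k7cl* -2.16, *Prss23* -1.70 and *Tigd4* -1.66 in all muscle, *Col22a1* -0.39, *Uchl1* -0.76, *Map3k7cl* -1.11 and *Prss23* -1.42 in tendon-adjacent muscle, *Uchl1* -2.69, *Map3k7cl* -2.17, *Prss23* -1.39 and *Tigd4* -2.28 in inner muscle (stage), *Col22a1* 0.0059, *Uchl1* 0.075 and *Prss23* 0.025 in all muscle, *Col22a1* 0.32, *Uchl1* 0.21 and *Prss23* 0.13 in inner muscle (CaV1.1 KO at E14.5), *Tigd4* 0.92 in all muscle, *Uchl1* 0.59 and *Prss23* 1.20 in inner muscle (CaV1.1 KO at E18.5), *Prss23* 0.45 in all muscle, *Col22a1* 0.11 and *Uchl1* 0.43 in tendon-adjacent muscle, *Map3k7cl* 0.089 and *Prss23* 0.21 in inner muscle (β-cat cKO), *Tigd4* 0.22 in all muscle, *Uchl1* 0.38 and *Tigd4* 0.26 in inner muscle (CaV1.1 KO effect at E18.5 minus E14.5). The mean log2 ratio of tendon-adjacent to inner muscle moved to *Col22a1* 1.52, *Uchl1* 1.25 and *Map3k7cl* 1.44 in E14.5 controls and *Col22a1* 4.54, *Uchl1* 3.21, *Map3k7cl* 2.49, *Prss23* 1.39 and *Tigd4* 4.54 in E18.5 controls. With sections scaled to total UMIs, a setting chosen after seeing the data, genes called were 7997 (all), 1432 (tendon-adjacent) and 6836 (inner) for CaV1.1 KO at E18.5 and 2826 (all), 53 (tendon-adjacent) and 1864 (inner) for β-cat cKO. Sign changes were the log2 differences of *Col22a1* -0.14 in all muscle, *Uchl1* -0.27 in inner muscle (stage), *Tigd4* 0.057 in all muscle, *Prss23* 0.46 in inner muscle (CaV1.1 KO at E18.5), *Prss23* 0.15 in all muscle (β-cat cKO), *Uchl1* 0.18 and *Tigd4* 0.065 in inner muscle (CaV1.1 KO effect at E18.5 minus E14.5). With only muscle spots above the median muscle score, genes called were 2361 (tendon-adjacent) for stage, 114 (tendon-adjacent) for CaV1.1 KO at E14.5, 164 (tendon-adjacent) for CaV1.1 KO at E18.5 and 46 (tendon-adjacent) for β-cat cKO. Reversed were the log2 differences of *Col22a1* -0.80 in all muscle (stage), *Prss23* -0.018 and *Tigd4* 1.32 in all muscle (CaV1.1 KO at E18.5), *Map3k7cl* 0.026 and *Tigd4* 0.16 in all muscle, *Col22a1* 0.21 and *Uchl1* 0.67 in tendon-adjacent muscle, *Map3k7cl* 0.16 in inner muscle (β-cat cKO), *Tigd4* 0.71 in all muscle, *Tigd4* 0.40 in inner muscle (CaV1.1 KO effect at E18.5 minus E14.5). Without the filter on low counts, genes called were 536 (all), 184 (tendon-adjacent) and 710 (inner) for CaV1.1 KO at E14.5, 1190 (tendon-adjacent) for CaV1.1 KO at E18.5, 436 (tendon-adjacent) and 1585 (inner) for β-cat cKO and 153 for inner against outer ends. With the DESeq2 Wald test, genes called were 731 (all), 63 (tendon-adjacent) and 594 (inner) for CaV1.1 KO at E14.5 and 5 for inner against outer ends. The sign turned for the log2 differences of *Tigd4* -0.092 (inner against outer ends). With the replicate block, genes called were 0 (all) and 103 (tendon-adjacent) for CaV1.1 KO at E14.5, 81 (all), 609 (tendon-adjacent) and 415 (inner) for β-cat cKO and 1461 (tendon-adjacent) for CaV1.1 KO at E18.5. Sign changes were the log2 differences of *Tigd4* -0.054 in tendon-adjacent muscle (CaV1.1 KO at E14.5), *Prss23* -0.032 in tendon-adjacent muscle, *Prss23* 0.067 in inner muscle (CaV1.1 KO at E18.5), *Prss23* -0.10 in tendon-adjacent muscle (β-cat cKO). With a ring of up to 210 µm, genes called were 72 (tendon-adjacent) for CaV1.1 KO at E14.5, 1470 (tendon-adjacent) for CaV1.1 KO at E18.5 and 195 (tendon-adjacent) for β-cat cKO. Reversed were the log2 differences of *Tigd4* -0.35 in tendon-adjacent muscle (CaV1.1 KO at E14.5). With muscle ends chosen by *Ankrd1* and *Rxrg*, genes called were 322 (tendon-adjacent) for CaV1.1 KO at E14.5, 1139 (tendon-adjacent) for CaV1.1 KO at E18.5 and 1001 (tendon-adjacent) for β-cat cKO. Opposite in sign were the log2 differences of *Tigd4* -0.29 in tendon-adjacent muscle (CaV1.1 KO at E14.5), *Col22a1* 0.20 and *Uchl1* 0.72 in tendon-adjacent muscle (β-cat cKO). With only the sections of a comparison, genes called were 890 (tendon-adjacent) for CaV1.1 KO at E18.5 and 353 (tendon-adjacent) for β-cat cKO. Without the minimum of UMIs per spot, genes called were 58 for inner against outer ends. With no replicate block for the ends, genes called were 0 for inner against outer ends. Turned in sign were the log2 differences of *Tigd4* -0.048 (inner against outer ends). With only E14.5 ends, genes called were 92 for inner against outer ends. A changed sign was seen for the log2 differences of *Col22a1* 0.0057 and *Tigd4* -0.49 (inner against outer ends). With only E18.5 ends, genes called were 17 for inner against outer ends. The sign turned for the log2 differences of *Uchl1* 0.0073 and *Map3k7cl* 0.056 (inner against outer ends). With distance taken to the nearest non-muscle position, the mean log2 ratio of tendon-adjacent to inner muscle moved to *Col22a1* 1.98, *Uchl1* 0.53 and *Map3k7cl* 1.16 in E14.5 controls and *Col22a1* 3.56, *Uchl1* 2.21, *Map3k7cl* 1.32 and *Tigd4* 3.83 in E18.5 controls. When each control section was left out in turn, genes called ranged over 65 to 268 for CaV1.1 KO at E14.5 in all muscle, 826 to 1246 for β-cat cKO in all muscle, 0 to 79 for CaV1.1 KO at E14.5 in tendon-adjacent muscle, 208 to 699 for CaV1.1 KO at E18.5 in tendon-adjacent muscle, 21 to 136 for β-cat cKO in tendon-adjacent muscle, 81 to 280 for CaV1.1 KO at E14.5 in inner muscle, 657 to 1091 for β-cat cKO in inner muscle and 4 to 94 for inner against outer ends. The log2 differences that changed sign in those fits ranged over *Prss23* -0.050 to 0.23 (CaV1.1 KO at E18.5, all muscle), *Prss23* -0.20 to 0.077 (β-cat cKO, all muscle), *Tigd4* -0.042 to 0.35 (CaV1.1 KO at E14.5, tendon-adjacent muscle), *Prss23* -0.044 to 0.24 (CaV1.1 KO at E18.5, tendon-adjacent muscle), *Prss23* -0.11 to 0.18 (β-cat cKO, tendon-adjacent muscle), *Prss23* -0.19 to 0.15 (CaV1.1 KO at E18.5, inner muscle), *Map3k7cl* -0.18 to 0.080 (inner against outer ends), *Tigd4* -0.12 to 0.073 (inner against outer ends) and *Col22a1* -0.26 to 0.10 (inner against outer ends).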
